A study of Mus musculus with 12 samples.

Results

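Kupffer cells are the resident macrophages of the liver, and 10 genes that mark them or macrophages in general were followed in the liver and the esophagus: Clec4f, Vsig4, Marco, Cd5l, Timd4, Adgre1, Cd68, Csf1r, Cd163 and Mrc1. The genes were chosen by symbol, and a gene was taken as measured where a non-control probe carried a RefSeq accession of that symbol. This held for 9 of the 10 genes, with 12 probes in all, out of 16535 genes named on the array; no probe was matched to Cd68, which was not analysed here. Where a gene had several probes the brightest, by its mean over the 12 arrays, stood for it.

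The tissue came from 6 male mice of a mixed 129Sv/C57BL6 background at about 8 months of age, and 1 array was run per organ and mouse. In 3 mice (TG, Col1a1tetO-Nanog/+;Rosa26rtTA/+) doxycycline lets the rtTA activator, made from Rosa26, turn on Nanog from a tetO cassette placed at Col1a1, and the 3 controls (CTR, Col1a1+/+;Rosa26rtTA/+) carried the activator alone. All 6 mice drank 0.2 mg/ml doxycycline in 7.5% sucrose for 48 h. Nanog is a transcription factor of pluripotent cells, and rtTA driven from Rosa26 is expressed widely rather than in 1 cell type, so the labels tie the transgene to no macrophage. RNA extraction differed by organ (Trizol followed by a column for liver, a fibrous-tissue kit for esophagus), so the organ and the extraction method cannot be told apart.

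Kupffer cells sit inside the liver sinusoids, where they take up bacteria, worn-out red blood cells and modified lipoproteins from the portal blood. They depend on signals through the Csf1 receptor, and their identity is linked to the transcription factors PU.1, Nr1h3, Spic, Id3 and the Maf family. Clec4f is the member most closely tied to mouse Kupffer cells, Vsig4, Marco, Cd5l and Timd4 are expressed by Kupffer cells and by some other resident macrophages, and Adgre1, Csf1r, Cd163 and Mrc1 are found on macrophages of many tissues, Mrc1 also on liver sinusoidal endothelium.

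A level below is a log2 processed signal from which the array's own 75th percentile was subtracted, so it compares arrays for 1 probe and does not rank genes against each other. A gene was called where its two-sided limma p, adjusted over all genes tested in that comparison, was under 0.05. From 56.5% to 81.8% of probes were well above background per array. The liver arrays showed liver transcripts and the esophagus arrays those of a squamous epithelium: all 9 matched hepatocyte genes were higher in CTR liver, with a median log2 difference of 12.30, and all 10 keratinocyte genes were lower, with a median of -8.22. On all 12 arrays the probe of Nanog itself read too low to be well above background, and whether it matches the transgene's transcript is unknown here, so it checks no label. In whole tissue, fewer cells of a type and less RNA per cell cannot be told apart.

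The promoters of Clec4f, Vsig4 and Cd5l, the 3 members with the largest organ differences, and of Mrc1, which has the most matches, are shown with the core letters of a PU.1 site in capitals. PU.1 is a lineage factor of macrophages. The windows are the 250 bases before the RefSeq gene start in GRCm38.p6, given 5′ to 3′ on the gene's strand, and capitals mark GAGGAA, or TTCCTC where it lies on the other strand. Clec4f lies on the minus strand at chr6:83656117-83656366, Vsig4 on the minus strand at chrX:96293439-96293688, Cd5l on the plus strand at chr3:87357631-87357880 and Mrc1 on the plus strand at chr2:14229164-14229413.
Clec4f: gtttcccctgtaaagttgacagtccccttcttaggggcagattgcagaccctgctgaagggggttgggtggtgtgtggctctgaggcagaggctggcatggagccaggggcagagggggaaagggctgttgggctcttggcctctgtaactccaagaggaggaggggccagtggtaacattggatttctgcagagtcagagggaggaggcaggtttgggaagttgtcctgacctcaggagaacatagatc
Vsig4: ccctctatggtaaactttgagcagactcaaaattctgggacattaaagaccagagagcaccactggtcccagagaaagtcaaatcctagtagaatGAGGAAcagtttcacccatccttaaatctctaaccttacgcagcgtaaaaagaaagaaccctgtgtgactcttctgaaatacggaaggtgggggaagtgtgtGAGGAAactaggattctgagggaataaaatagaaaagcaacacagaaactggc
Cd5l: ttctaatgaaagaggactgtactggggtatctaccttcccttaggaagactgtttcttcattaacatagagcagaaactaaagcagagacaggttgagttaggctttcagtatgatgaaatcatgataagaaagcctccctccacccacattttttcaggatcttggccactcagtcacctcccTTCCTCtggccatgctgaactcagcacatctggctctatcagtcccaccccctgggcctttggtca
Mrc1: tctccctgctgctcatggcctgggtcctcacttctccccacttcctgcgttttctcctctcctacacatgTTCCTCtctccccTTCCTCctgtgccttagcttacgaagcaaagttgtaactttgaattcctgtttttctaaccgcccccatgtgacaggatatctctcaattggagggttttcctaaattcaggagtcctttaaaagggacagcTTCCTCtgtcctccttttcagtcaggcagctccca

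Of the 8 members with a promoter in the RefSeq table (all but Adgre1 and Csf1r), 5 held GAGGAA on either strand, against 23.3% of 32851 promoter windows of the same length. Vsig4 held it at 155 and 53 bases before the start, Marco at 146 and Cd5l at 66. Cd68, which had no matched probe and no measured level, is among the 5, with a match at 225 bases. Mrc1, whose level did not pass between the organs, held it 3 times, at 180, 167 and 35 bases, whereas Clec4f, Timd4 and Cd163 held none. The letters TGCTGA, the half-site of Maf factors, were in 3 of the 8 windows on either strand, those of Clec4f, Cd5l and Timd4, against 16.1% of all windows. The 2 motifs did not overlap in Cd5l, the member with both. A match of short letters is a description and not a measured site.

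The first question is how the members' levels differ between the 2 organs, asked in the 3 CTR and in the 3 TG mice, which share no array. Both comparisons came from 1 fit with a common estimate of the spread, so they are not independent tests. In both genotypes Clec4f, Vsig4, Cd5l and Timd4 were higher in liver than in esophagus, and in TG mice Marco was higher as well. That made 4 of 9 members called higher in CTR liver, where 34.6% of the 23365 genes tested were called higher, and 5 of 9 in TG liver, where 38.9% of 23912 were. Clec4f in both genotypes and Cd5l in TG mice were tested only through the liver group, and their calls use esophagus readings below background. Where every array of both groups had to be above background, 8 members were tested in CTR mice. In TG mice 7 were tested and 3 called. No member was called lower, against 27.8% and 24.3% of all genes, and 62.4% and 63.2% of genes were called in either direction. The median log2 difference, liver minus esophagus, was 1.14 over the 9 members in CTR mice against 0.14 over all genes, and 1.65 against 0.36 in TG mice. Most genes on the array differed between these organs, so the members' shares lie near the background, and the differences of Clec4f, Cd5l and Vsig4 were the largest among the members. Adgre1, Csf1r, Cd163 and Mrc1 did not pass in either genotype. With the mouse as a fixed block, 6 members were called in CTR mice, Cd163 (lower) and Mrc1 (higher) being added, and 5 in TG mice.

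**Figure D1:**
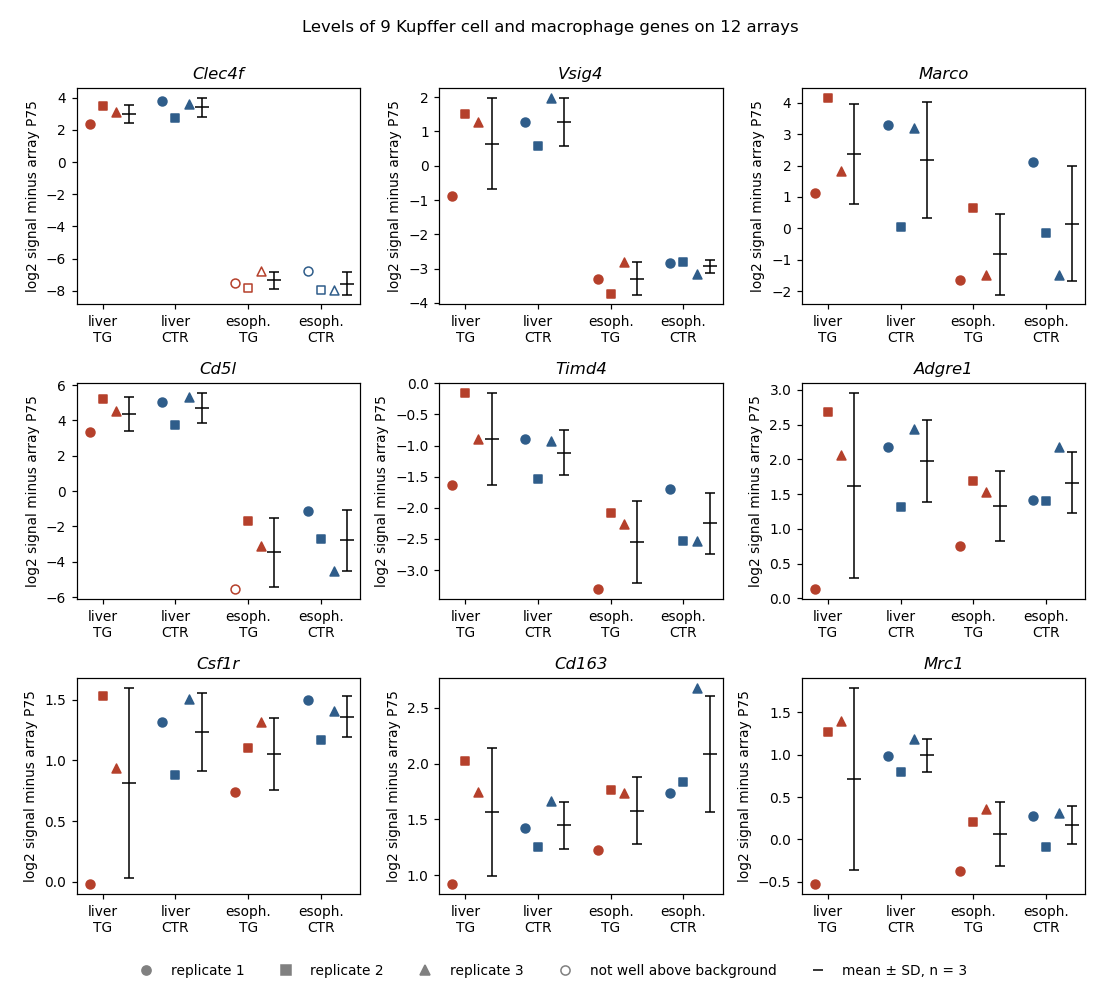
Level of each measured member (log2 processed signal minus the array's 75th percentile, P75, on the vertical axis) on the 12 arrays, in 4 groups of 3; filled symbols are well above background, open symbols are not, symbol shape gives the replicate number and black bars the mean ± SD. Clec4f is between 2.39 and 3.81 in liver and at or below -6.75 on every esophagus array, whereas the 2 organs overlap for Adgre1 and Csf1r, and liver TG replicate 1 is the lowest liver for every member but Marco.

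Clec4f encodes a C-type lectin that binds glycans on the Kupffer cell surface. Its liver levels were 2.39, 3.45 and 3.11 in TG replicates 1, 2 and 3 and 3.81, 2.73 and 3.62 in CTR replicates 1, 2 and 3. Its esophagus probe read -7.51, -7.80 and -6.75 in TG and -6.75, -7.93 and -7.96 in CTR, and was well above background on 0 of the 6 esophagus arrays. The organs lay far apart and the genotypes overlapped within each. The fitted log2 differences were 10.93 in CTR and 10.33 in TG mice (limma adjusted p = 8.81e-09 and 1.37e-08). With esophagus readings raised to each array's lowest signal well above background, Clec4f was 704-fold higher in CTR liver and 509-fold higher in TG liver. That floor is no strict bound, since a probe can fall short of the background mark above it, as Cd5l did on esophagus TG replicate 1 (-5.57 against -5.75). The size depends on how dim signals are treated. In the authors' deposited table the log2 differences were 6.42 and 6.08, smaller than these folds. They were also smaller with normexp (6.78 and 6.63) and with a common floor for dim values (7.35 and 6.95). In liver its TG minus CTR difference was -0.40 ± 0.43 (log2, SE), with an adjusted p of 0.767. Its TG minus CTR difference in esophagus was not tested, since both groups were below background there.

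Vsig4 encodes CRIg, the receptor by which Kupffer cells bind complement-coated particles. Liver levels were -0.89, 1.52 and 1.28 in TG replicates 1 to 3 and 1.28, 0.58 and 1.97 in CTR replicates 1 to 3. Esophagus levels were -3.31, -3.75 and -2.81 in TG and -2.84, -2.82 and -3.15 in CTR. Every liver was above every esophagus, and TG replicate 1 stood lowest among the livers. The organ difference was 4.21 ± 0.58 (log2, SE) in CTR mice, or 18.5-fold, and 3.93 ± 0.58 in TG mice, or 15.2-fold, with adjusted p of 0.000102 and 0.000169. Without liver TG replicate 1 the TG difference was 4.69. In the authors' deposited table the differences were 3.44 and 2.95. Between genotypes Vsig4 differed by -0.64 ± 0.57 in liver and -0.35 ± 0.58 in esophagus, and neither passed (adjusted p = 0.728 and 1).

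Marco encodes a class A scavenger receptor that binds bacteria. It had the widest spread of the members over the 6 livers, a range of 4.10 on the log2 scale: 1.12, 4.14 and 1.84 in TG and 3.29, 0.04 and 3.18 in CTR replicates 1 to 3. Its esophagus levels were -1.64, 0.66 and -1.48 in TG and 2.11, -0.16 and -1.49 in CTR. The organs overlapped in CTR mice, where CTR replicate 2 had 0.04 in liver and replicate 1 had 2.11 in esophagus, and were apart in TG mice. Marco was higher in liver by 3.19 ± 1.19 in TG mice (9.11-fold, adjusted p = 0.037), and by 2.01 ± 1.19 in CTR mice, where it did not pass (adjusted p = 0.164). The TG call was lost without liver TG replicate 2 (2.30, adjusted p = 0.137), esophagus TG replicate 1 (2.77, 0.112) or esophagus TG replicate 3 (2.86, 0.102). It was 3.81 without liver TG replicate 1 and 3.93 without esophagus TG replicate 2, and the CTR value passed without liver CTR replicate 2 (3.08, 0.046). In 6 of 6 mice the liver was above the esophagus of the same mouse, by 0.20 to 4.67.

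The 2 esophagus arrays highest in Marco were also highest in transcripts of airway and lung and in those of fat. The log2 of the summed level of 7 airway and alveolar epithelium genes was 8.00, 4.85 and 5.61 in esophagus CTR replicates 1 to 3 and -0.04, 6.81 and 0.90 in TG replicates 1 to 3, so the arrays highest in Marco, CTR replicate 1 and TG replicate 2, were also the highest in that sum. On CTR replicate 1 all 7 of the epithelial genes were well above background, and on TG replicate 1 4 of them were. The summed level of 8 fat genes was 7.81, 7.36 and 6.71 in CTR replicates 1 to 3 and 5.44, 7.48 and 5.44 in TG replicates 1 to 3, and was also highest on those 2 arrays. The summed level of 6 alveolar macrophage genes did not follow that order. It was highest, 6.24, in CTR replicate 3, which had the lowest Marco level of the CTR esophagi. On the other 5 arrays it lay between 1.71 and 2.88. That sum can rest on 1 gene, since the highest esophagus level of Chil3 alone, among the 6, was 6.2. The median over 4 of these genes, relative to the mean of the CTR esophagi, was 0.12, -0.36 and -0.03 in CTR replicates 1 to 3. In TG replicates 1 to 3 that median was -0.53, -0.36 and -0.31. On the arrays below the top 2 the airway sum and Marco parted, CTR replicate 3 having 5.61 and -1.49 and CTR replicate 2 having 4.85 and -0.16. Marco was not alone in this: Cd5l (-1.11 and -1.70) and Timd4 (-1.69 and -2.08) were also highest on esophagus CTR replicate 1 and TG replicate 2. Marco is also expressed by macrophages of the lung, and the part of these tissues in the values of Marco, Cd5l and Timd4 was not tested.

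Cd5l encodes AIM, a secreted protein that tissue macrophages release into the blood. Liver levels were 3.34, 5.21 and 4.52 in TG and 5.07, 3.75 and 5.32 in CTR replicates 1 to 3. Esophagus levels were -5.57, -1.70 and -3.11 in TG and -1.11, -2.74 and -4.53 in CTR, and the probe was well above background on 5 of the 6 esophagus arrays, TG replicate 1 being the exception. All livers were above all esophagi. The difference between organs was 7.51 ± 1.05 in CTR mice, or 182-fold (adjusted p = 0.000112), and 7.82 ± 1.05 in TG mice, or 226-fold (adjusted p = 8.24e-05). The TG value takes in all 3 esophagi, of which 2 read above background, and so includes the dim reading of -5.57. These folds moved with single arrays: the CTR difference was 8.35 without esophagus CTR replicate 1 and 6.64 without replicate 3, and the TG difference was 6.76 without esophagus TG replicate 1, the dim array, and 8.70 without replicate 2. Within slides the CTR difference was 4.86 and 9.60, and the TG difference 8.91 and 8.32. In the authors' deposited table the differences were 6.19 in CTR and 6.24 in TG mice. TG minus CTR was -0.36 ± 1.03 in liver and -0.67 ± 1.05 in esophagus (adjusted p = 0.925 and 1).

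Timd4 encodes Tim-4, a receptor for phosphatidylserine on dying cells that marks long-lived resident macrophages. It read -1.64, -0.16 and -0.89 in TG livers and -0.89, -1.53 and -0.92 in CTR livers. Esophagus values were -3.31, -2.08 and -2.26 in TG and -1.69, -2.53 and -2.53 in CTR. Within each genotype the lowest liver was above the highest esophagus, although CTR replicate 2 had -1.53 in liver and CTR replicate 1 had -1.69 in esophagus, close together. Timd4 was higher in liver by 1.65 ± 0.43 in TG mice (3.14-fold, adjusted p = 0.00698) and by 1.14 ± 0.43 in CTR mice (2.20-fold, adjusted p = 0.0413). The CTR call was lost without any 1 of 5 arrays: liver CTR replicate 1 (1.02), liver CTR replicate 3 (1.04), esophagus CTR replicate 2 (1.00), esophagus CTR replicate 3 (1.00) or esophagus TG replicate 3 (1.14), with adjusted p from 0.0515 to 0.121, and within 1 slide it was 0.16.

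Adgre1 encodes F4/80, the antigen by which mouse macrophages are stained. Its liver levels were 0.13, 2.68 and 2.06 in TG and 2.17, 1.31 and 2.44 in CTR replicates 1 to 3, and its esophagus levels 0.75, 1.69 and 1.53 in TG and 1.42, 1.40 and 2.17 in CTR. The 4 groups overlapped, and the liver of TG replicate 1 was the lowest of all 12 arrays. Liver minus esophagus was 0.31 in CTR mice, with a 95% interval from -1 to 1.61, and 0.30 in TG mice, from -1.01 to 1.60. A dimmer probe of Adgre1, well above background on 0 of 3 CTR livers, gave -0.13 ± 0.91 in CTR and 0.12 ± 0.91 in TG mice. In liver its TG minus CTR value was 0.19 ± 0.91, against -0.35 ± 0.58 for the brightest probe, neither passing.

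Csf1r encodes the receptor for Csf1 and Il34, on which macrophage survival depends. It read -0.02, 1.53 and 0.94 in TG livers and 1.32, 0.88 and 1.51 in CTR livers, against 0.74, 1.1 and 1.32 in TG and 1.5, 1.17 and 1.41 in CTR esophagi. The groups overlapped, and the liver was higher than the esophagus in 2 of 6 mice. Liver minus esophagus was -0.13 in CTR mice (95% interval -0.90 to 0.64) and -0.24 in TG mice (-1.01 to 0.53). A dimmer probe of Csf1r read in the other direction between genotypes in liver, TG minus CTR 1.03 ± 0.61 against -0.42 ± 0.34 for the brightest probe, and a further probe gave -0.73 ± 0.37, none of them passing.

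Cd163 encodes the receptor for haptoglobin-bound hemoglobin. Its liver levels were 0.92, 2.02 and 1.75 in TG and 1.42, 1.25 and 1.67 in CTR replicates 1 to 3, and its esophagus levels 1.23, 1.76 and 1.74 in TG and 1.74, 1.84 and 2.68 in CTR. In CTR mice every liver was below every esophagus, the only member with that order, and in TG mice the organs overlapped. The CTR difference was -0.64 ± 0.33 (adjusted p = 0.115), and with the mouse as a fixed block, since both organs came from the same animals, it was -0.64 with an adjusted p of 0.035. In TG mice the difference was -0.01 ± 0.33.

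Mrc1 encodes the mannose receptor, which clears glycoproteins. Levels were -0.53, 1.27 and 1.40 in TG livers and 0.99, 0.80 and 1.19 in CTR livers, and -0.37, 0.20 and 0.36 in TG and 0.28, -0.09 and 0.31 in CTR esophagi. CTR livers lay above CTR esophagi without overlap, while the liver of TG replicate 1 was below all esophagi. The CTR difference of 0.83 ± 0.44 did not pass (adjusted p = 0.128), passed with the mouse as a fixed block (adjusted p = 0.0383), and the TG difference of 0.65 ± 0.44 did not pass (adjusted p = 0.219). Without liver TG replicate 1 the TG difference was 1.28 and the CTR difference 0.83, and both passed (adjusted p = 0.00177 and 0.00885).

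**Figure D2:**
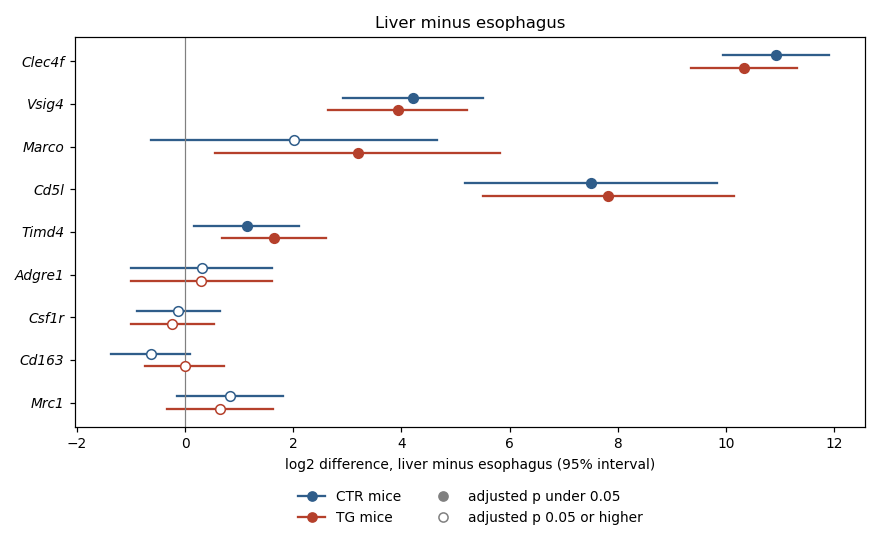
Liver minus esophagus on the log2 scale (horizontal axis) for each measured member, with 95% intervals of the limma fit, in CTR and TG mice; filled points had an adjusted p under 0.05. Clec4f, Cd5l and Vsig4 lie far to the right of 0 in both genotypes, the points of Adgre1, Csf1r, Cd163 and Mrc1 lie within 1 of it, and the Clec4f points rest on esophagus readings below background.

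Counted by overlap, 5 members (Clec4f, Vsig4, Cd5l, Timd4 and Mrc1) had every CTR liver above every CTR esophagus, against 37.0% of all genes, and 1 (Cd163) had every CTR liver below, against 31.1%. In TG mice 5 members (Clec4f, Vsig4, Marco, Cd5l and Timd4) had every liver above, against 44.3% of genes, and 0 had every liver below, against 26.8%. Ordered by group mean, Clec4f, Vsig4 and Cd5l ran from liver CTR to liver TG and then both esophagus groups, and the only neighbours in that order without overlap were liver TG and the next esophagus group. Timd4 ran from liver TG and liver CTR to the esophagus groups. Its only gap was a narrow one between liver CTR (lowest -1.53) and esophagus CTR (highest -1.69). For Marco, Adgre1, Csf1r, Cd163 and Mrc1 all neighbouring groups overlapped, so their order is not resolved.

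Other genes of Kupffer cells were called in both directions. Of 13 further Kupffer cell genes with a probe, 5 were called higher in CTR liver and 4 lower, with a median of 0.97, shares near the 34.6% and 27.8% of all genes. The iron exporter Slc40a1 was higher by 4.14 ± 0.27, the complement component C6, which hepatocytes also make, by 5.75 ± 0.36, and the lectin receptor Clec1b by 5.30 ± 0.54, while Hmox1, which degrades heme, was lower by 2.52 on the log2 scale (adjusted p = 3.08e-05). Among the transcription factors linked to these cells, 3 of 9 tested were called higher and 2 lower in CTR liver, again near those shares. Nr1h3 (3.50 ± 0.16) and Spic (3.03 ± 0.58) were the most clearly higher, and in TG mice they were higher by 3.49 and 3.92. Zeb2 differed by -2.18 ± 0.26 and Id1 by -2.18 ± 0.26, both lower in liver. The 2 ligands of the Csf1 receptor were lower in CTR liver, Csf1 with -1.47 ± 0.21 and Il34 with -2.34 ± 0.29 (adjusted p = 0.000144 and 4.75e-05).

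Genes of macrophages in general had no common direction between the organs. Of 21 with a probe, 2 were called higher in CTR liver and 4 lower, with a median of -0.28. Both shares are below those of all genes, 34.6% higher and 27.8% lower. The kinase receptors for dying cells went in opposite directions, Mertk being higher in CTR liver by 2.19 ± 0.20 and Axl lower with -2.84 ± 0.18. Sinusoidal endothelial genes were called higher in CTR liver in 9 of 10 cases, among them Clec4g (6.71 ± 0.38) and Stab2 (3.63 ± 0.26). The remaining 1 was called lower (-2.98), and the median was 2.03. Among all genes 34.6% were called higher and 27.8% lower.

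The second question is whether the members changed with Nanog induction. In liver 0 of 9 members were called, as were 0 (0%) of the 21247 genes tested, and 8.33% of genes but no member had an unadjusted p under 0.05. In esophagus 0 of 8 members were called, 0 (0%) of 23208 genes were called, and 3.98% of genes had an unadjusted p under 0.05, again no member among them. The difference between organs was called for 0 of 8 members and for 0 (0%) of 20017 genes, with 5.66% of genes and no member under 0.05 without adjustment. TG and CTR overlapped for every member tested in each organ, against 11.3% of genes without overlap in liver and 12.5% in esophagus.

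Liver TG minus CTR values ran from -0.64 (Vsig4) to 0.21 (Timd4), with a median of -0.35 over the 9 members against 0.13 over all genes, and 3 of 9 were above 0 (Marco, Timd4 and Cd163) against 66.5% of genes. The all-gene value depended on the scaling. With quantile normalization over the 12 arrays the medians were -0.34 for the members and 0.02 for all genes, and in the authors' deposited table -0.23 and 0.02. The 95% intervals were narrowest for Cd163, from -0.60 to 0.84 around 0.12, and widest for Marco, from -2.39 to 2.78 around 0.20. In esophagus all 8 values were below 0, from -0.97 (Marco) to -0.10 (Mrc1), with a median of -0.35 against 0.00 over all genes, of which 49.6% were above 0. Some lists of other tissues were lower in TG esophagi as well, with 0 genes called in each: the median was -3.83 for airway and alveolar epithelium (5 of 6 lower), -2.17 for heart (4 of 6), -1.72 for fat (8 of 8), -0.98 for hepatocytes (8 of 8), -0.91 for red blood cells (4 of 4), -0.66 for T cells (7 of 8) and -0.46 for dendritic and class II genes (11 of 11). Others were not: the median was 0.19 for monocytes and neutrophils (4 of 8 lower), 0.04 for endothelium (4 of 9), 0.04 for macrophage activation (5 of 10) and -0.01 for B cells (3 of 5). Keratinocyte and fibroblast genes had medians of 0.12 and -0.03. The part of these tissues in the members' values was not tested. Cd163 had the smallest unadjusted p of the esophagus members, 0.153, at -0.51 ± 0.33. Its difference between the organs' TG minus CTR values was 0.63 ± 0.46 (adjusted p = 0.889).

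**Figure D3:**
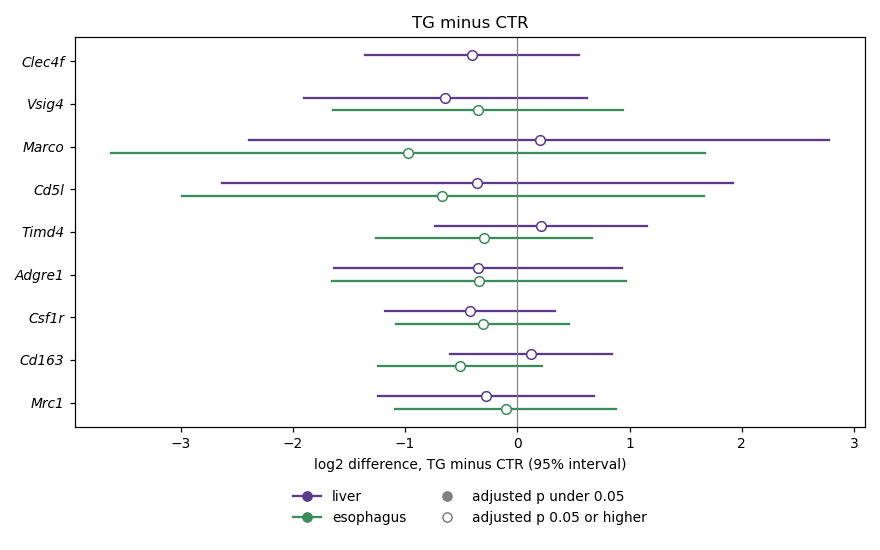
TG minus CTR on the log2 scale (horizontal axis) with 95% intervals of the limma fit, in liver and in esophagus; open points had an adjusted p of 0.05 or higher, and Clec4f has no esophagus point because it was not tested there. Every interval spans 0, and all 8 esophagus points and 6 of the 9 liver points lie below 0.

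In liver the sign of the median changed with a single array, and in esophagus the median was below 0 with any array left out (-0.53 to -0.10). Liver TG replicate 1 was the lowest of the 6 livers for 8 of the 9 members, all but Marco, and liver CTR replicate 2 was the lowest for Marco and the second lowest for the other 8. Liver TG replicate 2 was the highest for 5 members. Without liver TG replicate 1 the liver median was 0.35, with 7 of 9 members above 0, and without liver TG replicate 2 it was -0.69, with 0 of 9 above 0. Without liver CTR replicate 2 it was -0.68. No member was called with any single array left out, and among all genes the liver count was 6 without TG replicate 1, 18 without TG replicate 2, 5 without CTR replicate 1 and 1 without CTR replicate 2. In esophagus TG replicate 1 was the lowest array for 7 of the 9 probes, and without it the median was -0.10, with 3 of 8 above 0. Without esophagus CTR replicate 1 the median was -0.14, with 2 of 8 above 0. Esophagus TG replicate 1 and liver TG replicate 1 share both the mouse and the slide, so these cannot be told apart. Clec4f in liver (-0.73 to -0.11) and Vsig4, Adgre1, Csf1r and Cd163 in esophagus stayed below 0 with each array left out.

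The low liver array was low in endothelial genes too, but not in every list. Relative to the mean of the CTR livers, the median over the members was -1.25 in liver TG replicate 1, 0.50 and 0.00 in TG replicates 2 and 3, and 0.20, -0.65 and 0.27 in CTR replicates 1 to 3. The 10 sinusoidal endothelial genes had a median of -1.23 in liver TG replicate 1 and between -0.09 and 0.14 in the other livers, and general endothelial genes had -0.71 against -0.13 to 0.10. On the same array Kupffer cell transcription factors had -0.12, macrophage activation genes -0.10, other scavenger and pattern receptors -0.13 and dendritic and class II genes -0.38. Hepatocyte genes stood between -0.20 and 0.17 in all 6 livers, with 0.03 in TG replicate 1. In liver CTR replicate 2 the pan-macrophage genes had -0.63 and the sinusoidal endothelial genes -0.06, so the low members of that array were not matched by endothelium. On esophagus TG replicate 1 the members had -0.88, the pan-macrophage genes -0.65 and dendritic and class II genes -1.25. The part of tissue composition in these values was not tested.

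**Figure D4:**
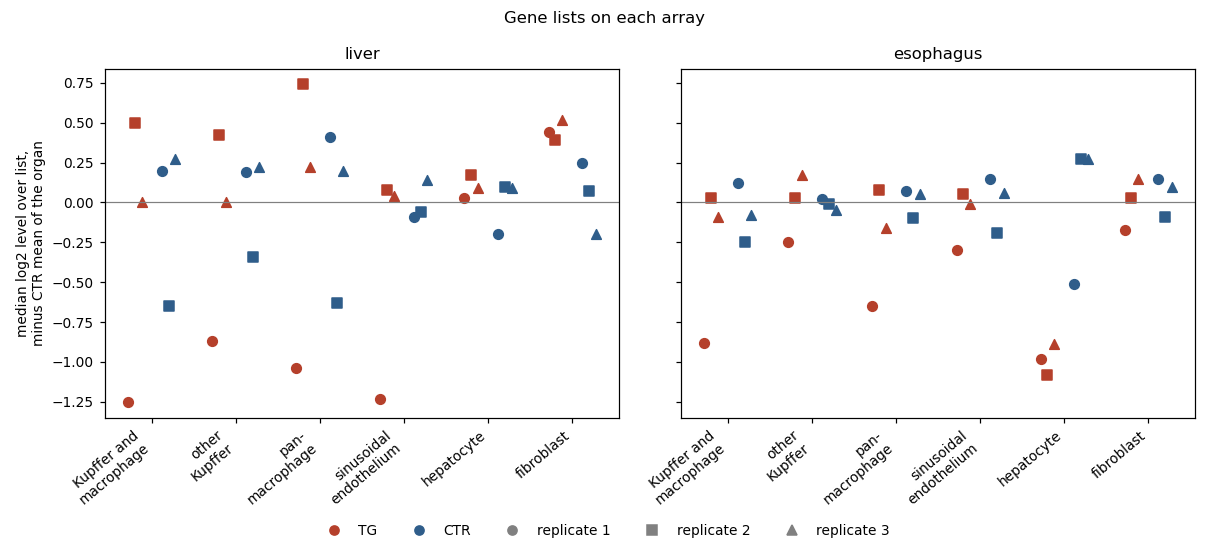
Median log2 level over each gene list minus the mean of the CTR arrays of the same organ (vertical axis), for the Kupffer and macrophage members, other Kupffer cell genes, pan-macrophage genes, sinusoidal endothelium, hepatocytes and fibroblasts, with 1 point per array. In liver, TG replicate 1 lies between -1.25 and -0.87 in the 3 macrophage lists plotted and in sinusoidal endothelium and at 0.03 for hepatocyte genes, and CTR replicate 2 is low in those 3 lists but at -0.06 for sinusoidal endothelium.

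Among other Kupffer cell genes none passed between genotypes, with 0 of 12 called in liver (median -0.01) and 0 of 13 in esophagus (median 0.03). Pan-macrophage genes gave 0 of 20 in liver (median -0.01) and 0 of 21 in esophagus, where 19 were below 0 (median -0.28). Genes of macrophage activation gave 0 of 10 in each organ. The 6 monocyte and neutrophil genes tested in liver were all above 0 in TG, where 66.5% of all genes were, with a median of 1.06 and values such as 1.12 ± 0.47 for Ccr2, the chemokine receptor of inflammatory monocytes, and 1.61 ± 0.66 for Mpo, neither passing (adjusted p = 0.595 for both). Other lists were also above 0 there, T cells in 7 of 8 genes (median 0.67), B cells in 5 of 5 (0.53) and fibroblasts in 7 of 7 (0.38), all with 0 called. In liver CTR replicate 3, 10 of the 12 monocyte and neutrophil genes with a probe were not well above background. The same held for 7 of 10 T cell genes and 4 of 7 B cell genes. A gene was tested where either group was above background throughout, so genes dim on that array could enter only through TG. Ccr2 and Mpo were above background on 5 of the 6 livers. The filter thus favours values above 0 in the monocyte, T cell and B cell lists, and their direction is not read as a change. The summed level of the monocyte and neutrophil genes overlapped between groups, 2.03 to 3.24 in TG and 1.40 to 3.28 in CTR livers, where CTR replicate 1 had 3.28.

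Slides hold 4 arrays, and the 12 arrays here came from 5 slides with at least 2 groups on each. On the slide that held liver TG replicate 3 and liver CTR replicate 2, all 9 members were higher in TG (median 0.64), and on the slide that held esophagus TG replicate 1 and CTR replicate 2 0 of 8 were (median -0.63). A fixed block for the slide gave TG minus CTR medians of -0.02 in liver and -0.68 in esophagus, with 0 members called in either. For the organs, within-slide differences of Clec4f ran from 9.48 to 11.77 and those of Vsig4 from 2.42 to 4.43, while Marco had -2.07 on 1 slide of CTR mice and 4.78 on the other. With the slide as a fixed block Timd4 in CTR mice was no longer called (0.77, adjusted p = 0.0858), and Cd163 in CTR mice was (-0.90, adjusted p = 0.0256).

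Over the 6 livers the genes most like Clec4f, by the smallest root mean square difference of centred log2 levels among 18073 genes, were Cd300e (0.07), Itgb2 (0.11), Cd72 (0.12), Slc11a1 (0.13) and Neurog2 (0.14). Csf1r was the nearest member, at position 42 with 0.23, and Marco the farthest, at 1.03. Marco was closest to Cyp2c70 (0.55), an unnamed probe (0.59), Gvin1 (0.59), Socs2 (0.64) and Sult5a1 (0.64), with Cd5l its nearest member at position 42 and 0.81. These distances describe 6 arrays and carry no test.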

How the data were processed

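Liver and esophagus RNA of 6 mice was labelled with Cy3 (1 µg each, RNA integrity numbers 7.3 to 9.5 per the labels' protocols) and hybridised to 12 Agilent 4x44K arrays of design 14868. The deposited scanner files hold spot intensity values on a linear scale, background-subtracted by Agilent Feature Extraction 10.7.1.1 per the file headers. A series table of log2 values deposited by the authors served as an alternative; all its columns have a median of 7.27, and the submitters' processing notes name limma.

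Control spots and 1311 outlier spots were left out, none was saturated, and 23374 of 41174 probes were named through RefSeq accessions (GRCm38.p6). The 75th percentile per array ran from 8.88 to 10.1 (log2). A comparison took in every gene whose probe was well above background throughout either group (3 of 3 arrays). One limma fit (lmFit, eBayes; limma 3.58.1, R 4.3.3) took all genes and 12 arrays as 4 group means without a block, leaving 8 residual degrees of freedom, with Benjamini-Hochberg adjustment over all genes of a comparison. With 3 mice a group, the number of arrays limits the precision. An exact permutation test of 3 against 3 cannot go below p = 0.1, so none was used. Other software was data.table (version 1.17.8), jsonlite 2.0.0, Python 3.11.15, pandas 2.3.3 and matplotlib 3.10.9.

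Liver and esophagus with the same number come from the same mouse per the labels, so the pairing is by animal; deviations from group means correlated between a mouse's organs at -0.04 to 0.19 over 17221 genes. Between genotypes the replicate numbers mark different mice. A simulation of liver TG minus CTR used the 17221 genes well above background on every array of both organs. Clec4f and Cd5l are not among these genes, so the recovery is not that of the members as a set. Recovery of 50 altered genes per size was 52% at a log2 change of 1, 86% at 2, 96% at 3 and 98% at 4. Of the 181 calls, 15 were genes left unaltered. Recovery of genes that are low together on 1 array, as most members were on liver TG replicate 1, was not tested.

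The members, and the gene lists used beside them, were chosen with earlier results of these data known. Named always are the 10 members. For another list, up to 4 genes with the smallest p in the comparison at hand could be named, and for likeness the 5 nearest genes to Clec4f and to the member with the widest liver range.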

Additional observations from a re-analysis of the deposited data

How the results depend on the processing

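Alternatives changed the background correction, the scaling, the filter on dim probes, the probe rule, the arrays in the fit, the slide, the array weights and the mouse or replicate number as a block. No alternative called a member between TG and CTR. The count of members called between the organs ran from 3 to 6 in CTR, the 6 being with the mouse as a fixed block, and was 5 in TG except where probes had to be well above background on every array of both groups, which leaves Clec4f and Cd5l untested and gave 3. The mouse as a random block changed no call. With single arrays left out these counts ran from 3 to 5 in CTR and from 4 to 6 in TG, and were 0 for TG minus CTR.

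Clec4f between the organs ran from 6.42 to 10.93 in CTR and from 6.08 to 10.45 in TG. The Timd4 call in CTR mice was also lost with no filter on dim probes (adjusted p = 0.0591) and with array weights (1.02, 0.1). Cd163 in CTR mice passed with quantile normalization (-0.82, 0.0495) and in the authors' deposited table (-0.77, 0.0248), and Mrc1 in CTR mice passed in a fit of the 6 CTR arrays alone (0.83, 0.0134).

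Values with no call changed sign as follows; the cause was not tested. For the difference between organs of TG minus CTR, Adgre1 was 0.02 with quantile normalization, 0.02 with normexp, 0.06 in the authors' deposited table, 0.12 with the mean of its probes, 0.75 with the slide as a fixed block, 0.01 as a random block and 0.46 with array weights. There Cd5l was -0.03 with a common floor, Csf1r 0.04 with the mean of its probes, 0.23 with the slide and 0.22 with weights, Mrc1 0.16 with the slide, and Vsig4 0.01 with the slide and 0.11 with weights. For TG liver minus TG esophagus, Csf1r was 0.02 with the mean of its probes and 0.01 with weights, and Cd163 0.13 with the slide and 0.13 with weights. For liver TG minus CTR, Adgre1 was 0.05 with the slide and 0.15 with weights, and Cd5l 0.20 with weights. For CTR liver minus CTR esophagus, Adgre1 was -0.18 with the slide.

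With single arrays left out, liver TG minus CTR ran from -0.88 to 0.40 for Adgre1, -0.84 to 0.15 for Cd5l, -0.62 to 0.35 for Mrc1, -1.08 to 0.13 for Vsig4, -0.11 to 0.44 for Cd163, -0.87 to 0.82 for Marco and -0.15 to 0.59 for Timd4. In esophagus it ran from -1.55 to 0.39 for Cd5l, -0.25 to 0.12 for Mrc1, -0.53 to 0.08 for Timd4 and -1.80 to 0.00 for Marco. The difference between organs ran from -0.54 to 0.74 for Adgre1, -0.47 to 0.31 for Csf1r, -0.52 to 0.45 for Mrc1, -0.73 to 0.48 for Vsig4 and -0.74 to 1.19 for Cd5l. TG liver minus TG esophagus ran from -0.24 to 0.31 for Cd163, -0.59 to 0.18 for Csf1r and -0.23 to 1.04 for Adgre1, and CTR liver minus CTR esophagus from -0.26 to 0.05 for Csf1r.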
